A study of Homo sapiens with 43 samples.

Results

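The 9 genes studied here code for adhesion molecules of B cells and their binding partners and were followed through 43 libraries of polyadenylated RNA: ICAM1, ICAM3, VCAM1, CD58, ITGAL, ITGA4, ITGB7, CD44 and CEACAM1. They were taken by symbol and are 9 of the 58780 Ensembl genes in the files. Of these, 39 were made from GM12878, B lymphocytes immortalised with Epstein-Barr virus, and 4 from the liver cancer line HepG2. The study exposed GM12878 to immune stimuli, with and without inhibition of the BAF chromatin remodelling complex.

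B cells hold on to other cells through integrins, surface receptors made of an alpha and a beta chain that bind ligands on the partner cell. The alpha L chain (ITGAL) pairs with the beta 2 chain to form LFA-1, which binds ICAM1 and ICAM3. The alpha 4 chain (ITGA4) pairs with beta 1 or with beta 7 (ITGB7) and binds VCAM1, and with beta 7 also the gut addressin MADCAM1. CD58 binds CD2 on T cells, CD44 binds the matrix sugar hyaluronan, and CEACAM1 binds itself on a neighbouring cell and carries inhibitory signals. Clusters of lymphoblastoid cells in culture are known to be held together by such contacts.

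In the stimulus panel, GM12878 was treated for 6 h with TNF (25 ng/mL), LPS (10 ng/mL), IL2 (50 U/mL), IFNg (100 ng/mL), dexamethasone (Dex, 500 nM), doxorubicin (Dox, 500 nM) or the vehicles DMSO and PBS. This gave 15 libraries in 8 groups, 2 in each and 1 for Dox. In the pretreatment experiment, 24 libraries in 12 groups of 2, GM12878 received BRM014 at 10 µM or DMSO for 30 min, then IFNg (100 ng/mL), Dex (500 nM) or vehicle for 1 h or 6 h. BRM014 blocks the ATPase subunits of the BAF complex, SMARCA4 and SMARCA2. HepG2 received DMSO or BRM014 at 10 µM for 24 h, 2 libraries each. Each line is a single established culture line, and the labels call the libraries replicates without saying that they came from separate cultures, so p-values measure the spread between these libraries, which may be technical.

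GM12878 libraries held 12.9 to 22.9 M counts and HepG2 libraries 3.06 to 19.9 M, the shallowest being BRM014 replicate 2. All 7 B cell markers had a mean over 1 TPM (the deposited level, scaled for gene length and depth) in GM12878, with a summed level of 767 to 1541 TPM. In HepG2 the same list summed to 0.240 to 3.94 TPM, with MS4A1, PAX5 and CR2 at 0. Hepatocyte markers summed to 13082 to 22267 TPM in HepG2 and to 0.880 to 2.91 in GM12878. T cell markers stayed between 1.31 and 5.07 TPM in every library. Myeloid markers summed to 1.88 to 5.90 TPM in GM12878 and 1289 to 2990.5 in HepG2, and endothelial and stromal markers to 1.79 to 16.3 and 7.56 to 26.2. Of the 5 myeloid genes, only 2 had a mean over 1 TPM in HepG2 and FCGR3A was at 0, so that sum rests on few genes.

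The 250 bases upstream of the RefSeq transcription start were read for the genes called higher with IFNg in the panel (GRCh38.p14, 5′ to 3′ on the gene's strand). They are shown because each holds a motif bound by factors of the interferon or NF-kB pathways, given in capitals. ICAM1, chr19:10270870-10271092, plus strand, stops at 223 bases, before the first annotated exon. VCAM1 is chr1:100719492-100719741, plus strand. CEACAM1 is chr19:42528482-42528731, minus strand, inside the longer GENCODE model of the gene.
ICAM1: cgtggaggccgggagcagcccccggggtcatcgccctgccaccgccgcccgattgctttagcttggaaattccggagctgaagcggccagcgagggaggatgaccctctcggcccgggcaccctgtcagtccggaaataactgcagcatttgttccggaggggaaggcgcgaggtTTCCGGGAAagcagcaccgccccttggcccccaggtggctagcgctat
VCAM1: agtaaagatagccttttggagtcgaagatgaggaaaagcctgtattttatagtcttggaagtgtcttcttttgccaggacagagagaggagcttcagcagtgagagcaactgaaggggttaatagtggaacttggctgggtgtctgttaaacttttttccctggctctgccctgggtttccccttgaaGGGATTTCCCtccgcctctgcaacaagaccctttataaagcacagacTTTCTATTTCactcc
CEACAM1: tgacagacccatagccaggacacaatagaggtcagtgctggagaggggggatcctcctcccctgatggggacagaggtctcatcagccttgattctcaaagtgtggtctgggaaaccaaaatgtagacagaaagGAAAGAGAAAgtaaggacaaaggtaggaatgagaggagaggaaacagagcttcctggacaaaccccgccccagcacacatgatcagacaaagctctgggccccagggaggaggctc

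The capitals in ICAM1 are a GAS motif (interferon gamma activated site, TTCNNNGAA), 75 to 67 bases before the start. In VCAM1 they are an NF-kB motif, 62 to 53 bases before the start, and then an ISRE core (GAAA, any 2 bases, GAAA) on the opposite strand, 15 to 6 bases before it. The CEACAM1 capitals are an ISRE core, 116 to 107 bases before the start. Motifs were searched on both strands in 35116 RefSeq windows of 250 bases, of which 10 belonged to 8 of the 9 genes. ITGAL was not matched. The GAS motif was in 6.57% of all windows and in 1 of the 10, the ISRE core in 3.02% and in 2 of the 10, and NF-kB in 5.21% and in 1 of the 10. The NF-kB pattern searched was GGG, A or G, any base, A or T, 2 bases of C or T, then CC. Stretches close to this pattern were not counted, such as tggaaattcc in ICAM1 and gggtttcccc in VCAM1. TATAAA was in 10.7% and in 2 of the 10 (ICAM1 and VCAM1), and in VCAM1 matches on the 2 strands overlapped. The glucocorticoid receptor hexamer AGAACA was in 12.4%, the full element (AGAACA, any 3 bases, TGTTCT) in 0.00285% and AP-1 (TGANTCA) in 6.57%, each in 0 of the 10. A match is a description of the letters only.

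Levels per length differed widely among the 9. In the 4 panel vehicle libraries, CD44 (ENSG00000026508.18, chr11:35138882-35232402) had the highest level at 299.9 ± 9.18 TPM (SD, n = 4), followed by ITGB7 (ENSG00000139626.15, chr12:53191323-53207282) at 285 ± 17.0 TPM. The libraries of this pair overlapped. ICAM3 (ENSG00000076662.9, chr19:10333776-10339661) followed at 130.0 ± 3.53 TPM. ICAM1 (ENSG00000090339.8, chr19:10271093-10286615) lay at 112 ± 2.20 TPM, with no overlap between its libraries and those of ICAM3. ITGA4 (ENSG00000115232.13, chr2:181457202-181538940) had 88.1 ± 2.52 TPM. ITGAL (ENSG00000005844.17, chr16:30472658-30523567) had 87.2 ± 4.80 TPM and CD58 (ENSG00000116815.15, chr1:116514534-116571039) 87.0 ± 4.88 TPM. ITGA4, ITGAL and CD58 overlapped. Far below stood CEACAM1 (ENSG00000079385.21, chr19:42507304-42561234) at 5.56 ± 0.573 TPM and VCAM1 (ENSG00000162692.11, chr1:100719742-100739045) at 3.86 ± 0.136 TPM. VCAM1 is best known from activated endothelium, and its level here was the lowest of the 9. On the opposite strand, CERKL overlaps ITGA4 and ZNF740 overlaps ITGB7 (GENCODE 44, hg38), and lncRNA genes overlap ICAM1, ICAM3, ITGAL, CD44 and CEACAM1. CEACAM1 has closely related family members and overlaps the pseudogene CEACAMP2, so how reads shared with them were handled is uncertain. Its counts were whole in every library.

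IFNg, a cytokine of T and NK cells, raised 3 of the 9 genes at 6 h in the panel: ICAM1, VCAM1 and CEACAM1. ICAM1 was at 479.8 and 456 CPM (counts scaled for library size with TMM) with IFNg, against 274 and 271 with DMSO and 287 and 276 with PBS. Both IFNg libraries lay above all 4 vehicle libraries, and the fitted log2 fold change was 0.76 ± 0.038 (SE; edgeR adjusted p = 7.02e-17). VCAM1 was at 12.6 and 11.9 CPM with IFNg, 9.39 and 9.21 with DMSO and 8.81 and 8.83 with PBS. The groups did not overlap, and the log2 fold change was 0.44 ± 0.11 (edgeR adjusted p = 0.00537). CEACAM1 stood at 16.2 and 14.9 CPM with IFNg, at 10.7 and 10.8 with DMSO and at 11.4 and 11.1 with PBS. Here too no vehicle library reached an IFNg library, with a log2 fold change of 0.50 ± 0.11 (edgeR adjusted p = 0.00155). The integrin chain ITGB7 fell, at 462 and 436 CPM against 464 and 495 with DMSO and 532 and 487 with PBS, a log2 fold change of -0.14 ± 0.042 (edgeR adjusted p = 0.0244). Its higher IFNg library lay just under the lowest vehicle library. ICAM3, CD58, ITGAL, ITGA4 and CD44 had log2 fold changes between -0.059 and 0.021 and were not called.

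Those 4 of 9 calls (3 higher, 1 lower) stand beside 11.9% of all genes called in the comparison, 7.11% higher and 4.75% lower. The median of the 9 was 0.0076 and that of all genes -0.008. In these bulk libraries fewer cells with a transcript and less transcript per cell cannot be told apart. Without IFNg replicate 1, VCAM1 (0.39, edgeR adjusted p = 0.106) and CEACAM1 (0.43, adjusted p = 0.0697) lost their calls, and VCAM1 lost it in DESeq2 (adjusted p = 0.0614). ITGB7 lost its call without IFNg replicate 2 (-0.089, adjusted p = 0.451), DMSO replicate 2 (-0.11, adjusted p = 0.126) or PBS replicate 1 (adjusted p = 0.105), with DMSO alone as control (-0.094, adjusted p = 0.271) and in a fit of the compared groups only (-0.13, adjusted p = 0.081).

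Dex, a glucocorticoid, lowered 7 of the 9 genes at 6 h in the panel and raised CD58. Both alpha integrin chains were among the clearest. ITGAL was at 109 and 112 CPM with Dex, 199 and 202 with DMSO and 202 and 193 with PBS. The Dex libraries were far below all vehicle libraries, and the log2 fold change was -0.85 ± 0.046 (edgeR adjusted p = 1.62e-16). ITGA4 was at 153 and 156 CPM with Dex, against 227 and 228 with DMSO and 225 and 235 with PBS, a log2 fold change of -0.57 ± 0.04 (adjusted p = 1.83e-13). The groups did not overlap. ITGB7, the beta partner of ITGA4, was at 348 and 328 CPM, against 464 and 495 with DMSO and 532 and 487 with PBS. Its groups did not overlap either, and its log2 fold change was -0.55 ± 0.043 (adjusted p = 2e-12).

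The hyaluronan receptor CD44 stood at 254 and 238 CPM with Dex, 344 and 339.8 with DMSO and 333 and 366 with PBS. No Dex library reached a vehicle library (log2 fold change -0.49 ± 0.042, edgeR adjusted p = 1.4e-11). CEACAM1 had the largest fold change of the 9 in this comparison, from 10.7 and 10.8 CPM with DMSO and 11.4 and 11.1 with PBS to 6.12 and 4.01 with Dex. Its log2 fold change was -1.15 ± 0.14 (adjusted p = 2.59e-08). Among the integrin ligands, ICAM1 was at 247 and 234 CPM, below the 271 to 287 of the vehicles, with a small log2 fold change of -0.21 ± 0.04 (adjusted p = 0.00013). VCAM1 was at 6.82 and 7.10 CPM against 8.81 to 9.39, a log2 fold change of -0.38 ± 0.12 (adjusted p = 0.0163). CD58, the ligand of CD2, went the other way, at 70.6 and 70.4 CPM against 57.4 to 65.0, with no overlap and a log2 fold change of 0.22 ± 0.053 (adjusted p = 0.00167). ICAM3 was at 175 and 179 CPM, overlapped the vehicles (177 to 190.4) and was not called (-0.055 ± 0.039).

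In this comparison 25.7% of all genes were called, 13.0% higher and 12.7% lower, against 1 and 7 of the 9. The median of the 9 was -0.49, that of all genes -0.0016. The IFNg and Dex comparisons share their vehicle libraries. The call of VCAM1 was lost without Dex replicate 1 (-0.35, edgeR adjusted p = 0.111) or Dex replicate 2 (-0.41, adjusted p = 0.0783), with PBS alone as control (-0.34, adjusted p = 0.0795) and in DESeq2 (adjusted p = 0.115).

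**Figure D1:**
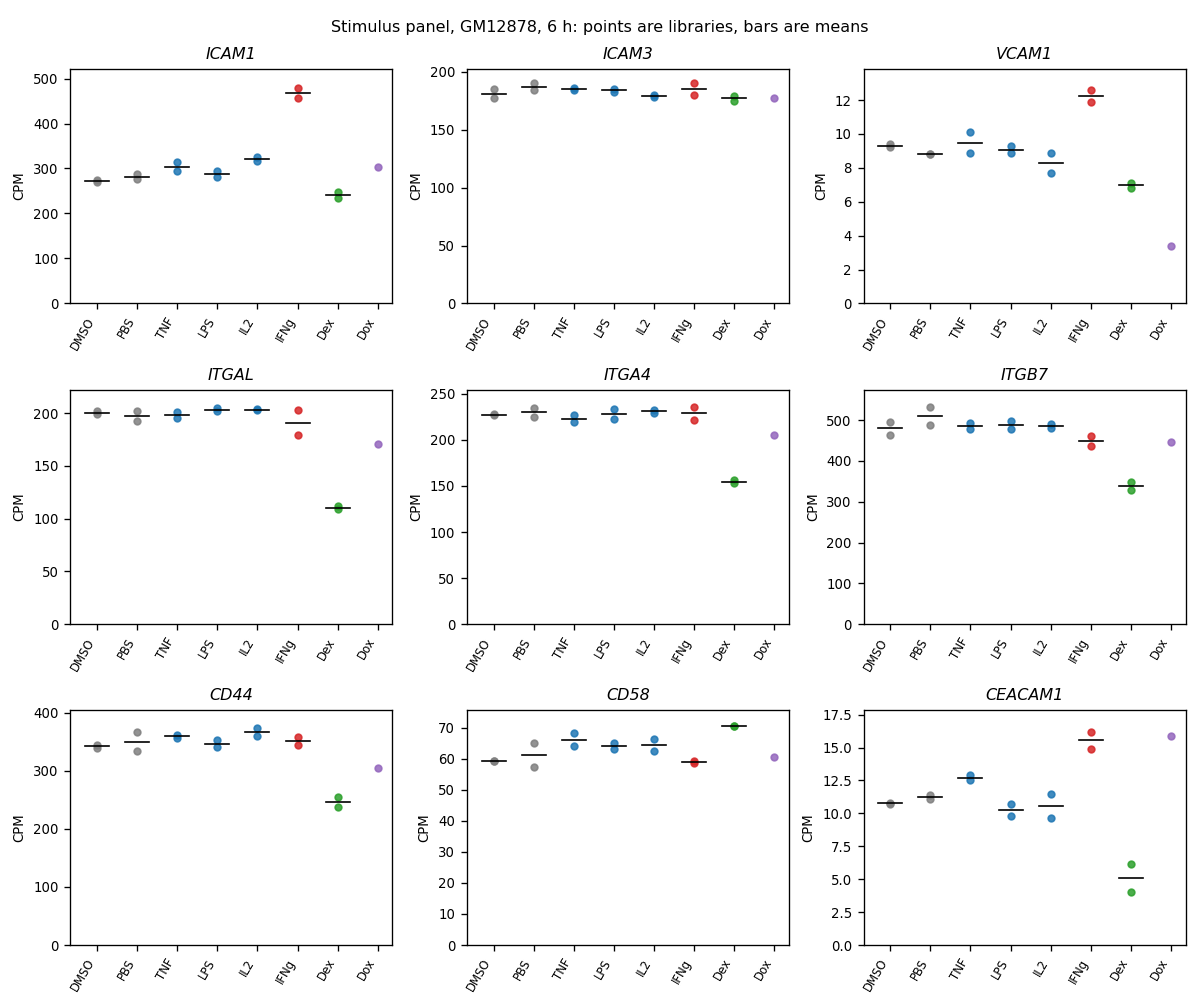
Levels of the 9 genes in the stimulus panel at 6 h, in CPM (linear axis from 0), with 1 point for each library and a bar at the mean of the 2 libraries of a group. ICAM1 stands high with IFNg (479.8 and 456 CPM), and ITGAL, ITGA4, ITGB7, CD44 and CEACAM1 stand low with Dex.

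Of the other tested stimuli, IL2 alone had a call among the 9. With IL2, ICAM1 was at 317 and 326 CPM, above every vehicle library, a log2 fold change of 0.21 ± 0.039 (edgeR adjusted p = 0.00502). It was the 1 of 9 called, beside 0.203% of all genes; the other log2 fold changes ran from -0.13 (VCAM1) to 0.094 (CD58). That call was lost without IL2 replicate 1 (0.24, adjusted p = 0.08) or IL2 replicate 2 (0.19, adjusted p = 0.438) and with PBS alone as control (0.19, adjusted p = 0.188).

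With TNF, the cytokine that activates NF-kB, 0 of the 9 were called by edgeR and 0 by DESeq2, beside 0.0190% of all genes. ICAM1 stood at 314 and 294 CPM, above all 4 vehicle libraries, with a log2 fold change of 0.13 ± 0.039 (95% interval 0.051 to 0.21, edgeR adjusted p = 0.66). ICAM1 and CD58 were the 2 of 9 with an unadjusted p under 0.05, beside 792 of all 15775 tested genes. With LPS, 0 of the 9 were called by either tool, where 0% of all genes were called. An unadjusted p under 0.05 was reached by 0 of the 9 and by 776 of all 15775 tested genes. ICAM1 was at 281 and 294 CPM with LPS, within or just above the vehicles (0.053 ± 0.04), and the other log2 fold changes ran from -0.10 (CEACAM1) to 0.086 (CD58). DMSO against PBS likewise called 0 of the 9 by either tool, beside 0.437% of all genes. At an unadjusted p under 0.05 there were 0 of the 9 and 1697 of all 15775 tested genes. The Dox group had 1 library and no test. Its VCAM1 level was 3.37 CPM, under the vehicle range of 8.81 to 9.39, a log2 ratio of -1.20 on the CPM + 1 scale. CEACAM1 was at 15.9 CPM with Dox, over the vehicle range of 10.7 to 11.4 (log2 ratio 0.49). CD58 was at 60.4 CPM, inside its vehicle range of 57.4 to 65.0. The log2 ratios of ICAM1, ICAM3, ITGAL, ITGA4, ITGB7 and CD44 lay between -0.22 and 0.13. With 1 library the spread of these Dox values is unknown.

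The pretreatment experiment added an early time. After 1 h of IFNg, ICAM1 was the 1 of 9 genes called, beside 0.514% of all genes. It was at 513 and 511 CPM, against 251 and 259.7 with vehicle. The libraries within each group were nearly equal, and the log2 fold change was 1.00 ± 0.078 (edgeR adjusted p = 6.46e-08). In cells given BRM014 first, ICAM1 was at 371 and 373 CPM after 1 h of IFNg and at 180.5 and 192 without. The level was lower in both groups, and the log2 fold change was again 1.00 ± 0.08 (adjusted p = 4.19e-07), with 1 of 9 genes called beside 0.105% of all. The difference between these fold changes was -0.0064 with a 95% interval of -0.24 to 0.23. For this interaction at 1 h, 0 of the 9 were called by edgeR or DESeq2, beside 0.0659% of all genes. An unadjusted p under 0.05 was reached by 0 of the 9 and by 442 of all 15183 tested genes.

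At 6 h of IFNg, ICAM1 was at 377 and 465 CPM against 295 and 268 with vehicle, a log2 fold change of 0.58 ± 0.078 (edgeR adjusted p = 4.22e-05). The groups did not overlap, though the IFNg libraries stood further apart than at 1 h. In the BRM014 arm ICAM1 was at 201 and 210.3 CPM with IFNg and 126 and 142 without, a log2 fold change of 0.62 ± 0.082 (adjusted p = 5.54e-05). The interaction was 0.036, with a 95% interval of -0.20 to 0.27. VCAM1 was at 10.5 and 12.8 CPM with IFNg in the BRM014 arm, against 6.87 and 7.70 without, a log2 fold change of 0.67 ± 0.17 (adjusted p = 0.0237). In the DMSO arm VCAM1 was at 12.6 and 10.2 CPM against 9.95 and 8.16 (0.34 ± 0.16, adjusted p = 0.292). Whether the arms differ for VCAM1 was tested by the interaction, 0.33 with a 95% interval of -0.14 to 0.81 (adjusted p = 0.759). CD58 fell in the DMSO arm, at 43.7 and 55.8 CPM with IFNg against 60.9 and 68.6, a log2 fold change of -0.37 ± 0.081 (adjusted p = 0.00254). In the panel CD58 had not been called (-0.035 ± 0.055). CEACAM1, called higher in the panel, was not called in this DMSO arm (0.20 ± 0.18, edgeR adjusted p = 0.669). Its libraries overlapped, at 9.55 and 11.7 CPM with IFNg against 8.68 and 9.86. ITGB7, called lower in the panel, was not called here either (-0.038 ± 0.059, edgeR adjusted p = 0.843).

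In the DMSO arm 2 of the 9 were thus called, beside 6.62% of all genes, and in the BRM014 arm 2, beside 1.77%. The call of CD58 was lost without IFNg replicate 1 (-0.22, edgeR adjusted p = 0.16) or vehicle replicate 2 (-0.28, adjusted p = 0.107) and in a fit of the compared groups only (adjusted p = 0.12); without IFNg replicate 2 it was -0.56. Without IFNg replicate 2, ITGAL also passed, at -0.32 (adjusted p = 0.0207), where with all libraries it did not (-0.20 ± 0.077, adjusted p = 0.157); it passed with no filter on low counts too (adjusted p = 0.0279). The VCAM1 call in the BRM014 arm was lost without its IFNg replicate 2 (0.53, adjusted p = 0.342), vehicle replicate 1 (0.59, adjusted p = 0.306) or vehicle replicate 2 (0.76, adjusted p = 0.0893) and in DESeq2 (adjusted p = 0.0778). For the interaction at 6 h 0 of the 9 were called by either tool, beside 0.198% of all genes. ITGAL was the 1 of 9 with an unadjusted p under 0.05, beside 1219 of all 15183 tested genes.

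Dex had no called effect on the 9 after 1 h and lowered 7 of them after 6 h. At 1 h, edgeR and DESeq2 called 0 in the DMSO arm (0.606% of all genes) and 0 in the BRM014 arm (0.277%). ICAM1 was the 1 of 9 with an unadjusted p under 0.05 in the DMSO arm, beside 620 of all 15183 tested genes. It was at 221 and 234 CPM against 251 and 259.7 (-0.17 ± 0.079), and it passed in a fit of the compared groups only (edgeR adjusted p = 0.0256). The interaction at 1 h called 0 by either tool, beside 0.119% of all genes. At an unadjusted p under 0.05 there were 0 of the 9 and 544 of all 15183 tested genes. At 6 h ITGAL was at 102 and 109 CPM with Dex against 185 and 181, a log2 fold change of -0.79 ± 0.079 (edgeR adjusted p = 6.17e-08). The groups were well apart. ITGA4 was at 134 and 137 CPM against 192 and 227 (-0.63 ± 0.11, adjusted p = 0.00062). ITGB7 was at 352 and 365 CPM against 509 and 462 (-0.44 ± 0.06, adjusted p = 1.31e-06). The 3 integrin chains were therefore lower at 6 h of Dex in both experiments, without overlap between groups. The share of all genes without overlap was not counted, here or for later counts of this kind.

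CD44 was at 253 and 227 CPM after 6 h of Dex against 341 and 319 (-0.46 ± 0.059, edgeR adjusted p = 4.16e-07), again with separate groups. CEACAM1 was at 4.26 and 3.70 CPM against 8.68 and 9.86 (-1.22 ± 0.20, adjusted p = 2.34e-05). VCAM1 was at 5.58 and 4.82 CPM against 9.95 and 8.16 (-0.78 ± 0.18, adjusted p = 0.00185). As in the panel, CEACAM1 had the most negative fold change of the 9. ICAM1 was at 240.3 and 235 CPM against 295 and 268 (-0.24 ± 0.079, adjusted p = 0.0425). CD58 was at 67.4 and 68.1 CPM against 60.9 and 68.6 and was not called (0.06 ± 0.079), and neither was ICAM3 (-0.0015 ± 0.058). The 7 of 9 called, all lower, stand beside 15.6% of all genes, 8.06% higher and 7.53% lower, and the median of the 9 was -0.46 against 0.0014 for all genes. The call of ICAM1 was lost without vehicle replicate 1 (-0.17, adjusted p = 0.287), Dex replicate 1 (-0.26, adjusted p = 0.133) or Dex replicate 2 (-0.22, adjusted p = 0.192).

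In cells given BRM014 first, 6 h of Dex lowered 3 of the 9, beside 7.77% of all genes. VCAM1 was at 2.50 and 3.09 CPM against 6.87 and 7.70, a log2 fold change of -1.38 ± 0.20 (edgeR adjusted p = 9.49e-06). CD44 was at 207 and 219 CPM against 261 and 269.5 (-0.31 ± 0.059, adjusted p = 0.000362). ITGB7 was at 286 and 276 CPM against 317 and 325 (-0.19 ± 0.06, adjusted p = 0.0463). For these 3 the groups did not overlap. ITGAL, in contrast, was at 51.4 and 46.8 CPM with Dex and 50.9 and 49.2 without, so the groups overlapped (-0.027 ± 0.091, adjusted p = 0.927). ITGAL was also the 1 of 9 called for a difference in Dex response between the arms, by 0.77 ± 0.12 on the log2 scale (95% interval 0.52 to 1.02, adjusted p = 0.000363), beside 2.76% of all genes. ITGAL, VCAM1, CD58 and ITGB7 were the 4 of 9 with an unadjusted p under 0.05 for this interaction, beside 1757 of all 15183 tested genes. It was -0.60 for VCAM1 (95% interval -1.16 to -0.039, adjusted p = 0.371), -0.26 for CD58 (95% interval -0.51 to -0.018, adjusted p = 0.367) and 0.25 for ITGB7 (95% interval 0.072 to 0.42, adjusted p = 0.145). CEACAM1 (-0.92 ± 0.44, adjusted p = 0.267), CD58 (-0.20 ± 0.091, adjusted p = 0.213), ICAM1 (-0.10 ± 0.083) and ICAM3 (0.06 ± 0.058) were not called in this arm. ITGA4 was at 108 and 101 CPM against 142 and 126, apart but not called (-0.36 ± 0.11, adjusted p = 0.0755); it passed in DESeq2 (adjusted p = 0.00188), with no filter (adjusted p = 8.58e-06) and in a fit of the compared groups only (adjusted p = 1.72e-08). The call of ITGB7 was lost without any 1 of its 4 libraries: vehicle replicate 1 (-0.21, adjusted p = 0.13), vehicle replicate 2 (-0.18, adjusted p = 0.23), Dex replicate 1 (-0.21, adjusted p = 0.119) or Dex replicate 2 (-0.16, adjusted p = 0.319).

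BRM014 by itself lowered ICAM1 by 1 h and 8 of the 9 genes by 6 h. At 1 h ICAM1 was at 180.5 and 192 CPM with BRM014 and 251 and 259.7 with DMSO, a log2 fold change of -0.45 ± 0.08 (edgeR adjusted p = 0.00205). The groups did not overlap, and ICAM1 was the 1 of 9 called, beside 2.05% of all genes. Without BRM014 replicate 1 the value was -0.41 and the call was lost (adjusted p = 0.0605). At 6 h ICAM1 was at 126 and 142 CPM against 295 and 268 (-1.07 ± 0.081, adjusted p = 1.68e-09). CD58 was at 34.4 and 32.9 CPM against 60.9 and 68.6 (-0.95 ± 0.084, adjusted p = 1.08e-10). Both ligands were thus at 0.476 and 0.517 of their vehicle level. ICAM3 was at 151 and 164 CPM against 194 and 176, a smaller log2 fold change of -0.23 ± 0.058 (adjusted p = 0.00183), whose call was lost without vehicle replicate 1 (-0.16, adjusted p = 0.0591) or BRM014 replicate 1 (-0.18, adjusted p = 0.0609). VCAM1, at 6.87 and 7.70 CPM against 9.95 and 8.16, was not called (-0.30 ± 0.17, adjusted p = 0.173).

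The LFA-1 chain ITGAL had the largest fall of the 3 integrin chains, from 185 and 181 CPM to 50.9 and 49.2 at 6 h. Its log2 fold change was -1.87 ± 0.084 (edgeR adjusted p = 3.37e-14), a level of 0.273 of the vehicle, where at 1 h the libraries had been at 222 and 193 against 216 and 196 CPM. ITGA4 was at 142 and 126 CPM against 192 and 227 (-0.65 ± 0.11, adjusted p = 0.00021). ITGB7 was at 317 and 325 CPM against 509 and 462 (-0.60 ± 0.06, adjusted p = 2.13e-09). No library of these 3 genes overlapped between the groups. CD44 was at 261 and 269.5 CPM against 341 and 319 (-0.31 ± 0.059, adjusted p = 6.74e-05). CEACAM1, the inhibitory receptor, had the largest fall of the 9, to 1.10 and 0.793 CPM (17 and 14 counts) from 8.68 and 9.86. That is a log2 fold change of -3.30 ± 0.26 (adjusted p = 6.91e-12), or 0.101 of the vehicle level. In this comparison 38.5% of all genes were called, 18.4% higher and 20.1% lower, against 0 and 8 of the 9. The median of the 9 was -0.65 and that of all genes 0.0064. The vehicle libraries themselves gave 0 of 9 calls between 6 h and 1 h by either tool, beside 1.43% of all genes. ITGAL (-0.17 ± 0.076) was the 1 of 9 at an unadjusted p under 0.05, beside 1988 of all 15183 tested genes.

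The same contrast was made in stimulated cells. Within IFNg at 6 h, BRM014 lowered 8 of 9, beside 33.6% of all genes, and within Dex at 6 h all 9, beside 37.7%. For CD44 these falls were in counts and CPM only. Its TPM was higher with IFNg and BRM014, at 259 and 259, than with IFNg alone, at 228 and 242. Within Dex its TPM overlapped, at 195 and 214 with BRM014 and 202 and 189 without. ICAM1 was at 201 and 210.3 CPM with IFNg and BRM014, against 377 and 465 with IFNg alone (-1.04 ± 0.079, edgeR adjusted p = 2.46e-09). With Dex and BRM014 it was at 117 and 132 CPM, against 240.3 and 235 (-0.93 ± 0.082, adjusted p = 1.42e-08). ITGAL was at 51.8 and 54.1 CPM against 146 and 172 within IFNg (-1.59 ± 0.085), and at 51.4 and 46.8 against 102 and 109 within Dex (-1.10 ± 0.087). All 6 BRM014 libraries at 6 h thus held ITGAL between 46.8 and 54.1 CPM. CEACAM1 had 0.644 and 1.04 CPM within IFNg (11 and 16 counts; -3.67 ± 0.26) and 0.732 and 0.276 CPM within Dex (12 and 5 counts; -3.00 ± 0.33). CD58 was at 31.3 and 29.4 CPM against 43.7 and 55.8 within IFNg (-0.72 ± 0.088), and at 31.2 and 27.3 against 67.4 and 68.1 within Dex (-1.21 ± 0.085). VCAM1 overlapped within IFNg, at 10.5 and 12.8 against 12.6 and 10.2 CPM, and was not called (0.038 ± 0.16, adjusted p = 0.885). Within Dex it fell, to 2.50 and 3.09 CPM from 5.58 and 4.82 (-0.90 ± 0.22, adjusted p = 0.0013).

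ITGB7 fell by 0.55 within IFNg and by 0.35 within Dex on the log2 scale. Calls of the smaller changes depended on single libraries. Within IFNg, ITGA4 (-0.37 ± 0.11, edgeR adjusted p = 0.0184) was lost without IFNg replicate 2 (-0.19, adjusted p = 0.241), BRM014 replicate 1 (-0.40, adjusted p = 0.0542) or BRM014 replicate 2 (-0.34, adjusted p = 0.0869). CD44 (-0.24 ± 0.059, adjusted p = 0.00199) was lost there without IFNg replicate 2 (-0.16, adjusted p = 0.11), and ICAM3 (-0.24 ± 0.058, adjusted p = 0.00198) without BRM014 replicate 1 (-0.20, adjusted p = 0.053). Within Dex, ITGA4 (-0.38 ± 0.11, adjusted p = 0.0159) was lost without Dex replicate 1 (-0.39, adjusted p = 0.0529), Dex replicate 2 (adjusted p = 0.05) or BRM014 replicate 2 (-0.32, adjusted p = 0.103). CD44 (-0.17 ± 0.06, adjusted p = 0.0234) was lost without Dex replicate 1 (-0.084, adjusted p = 0.433) or BRM014 replicate 1 (-0.13, adjusted p = 0.222), and was -0.27 without Dex replicate 2. ICAM3 (-0.17 ± 0.058, adjusted p = 0.0203) was lost without Dex replicate 1 (-0.15, adjusted p = 0.143) or BRM014 replicate 1 (-0.11, adjusted p = 0.272).

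**Figure D2:**
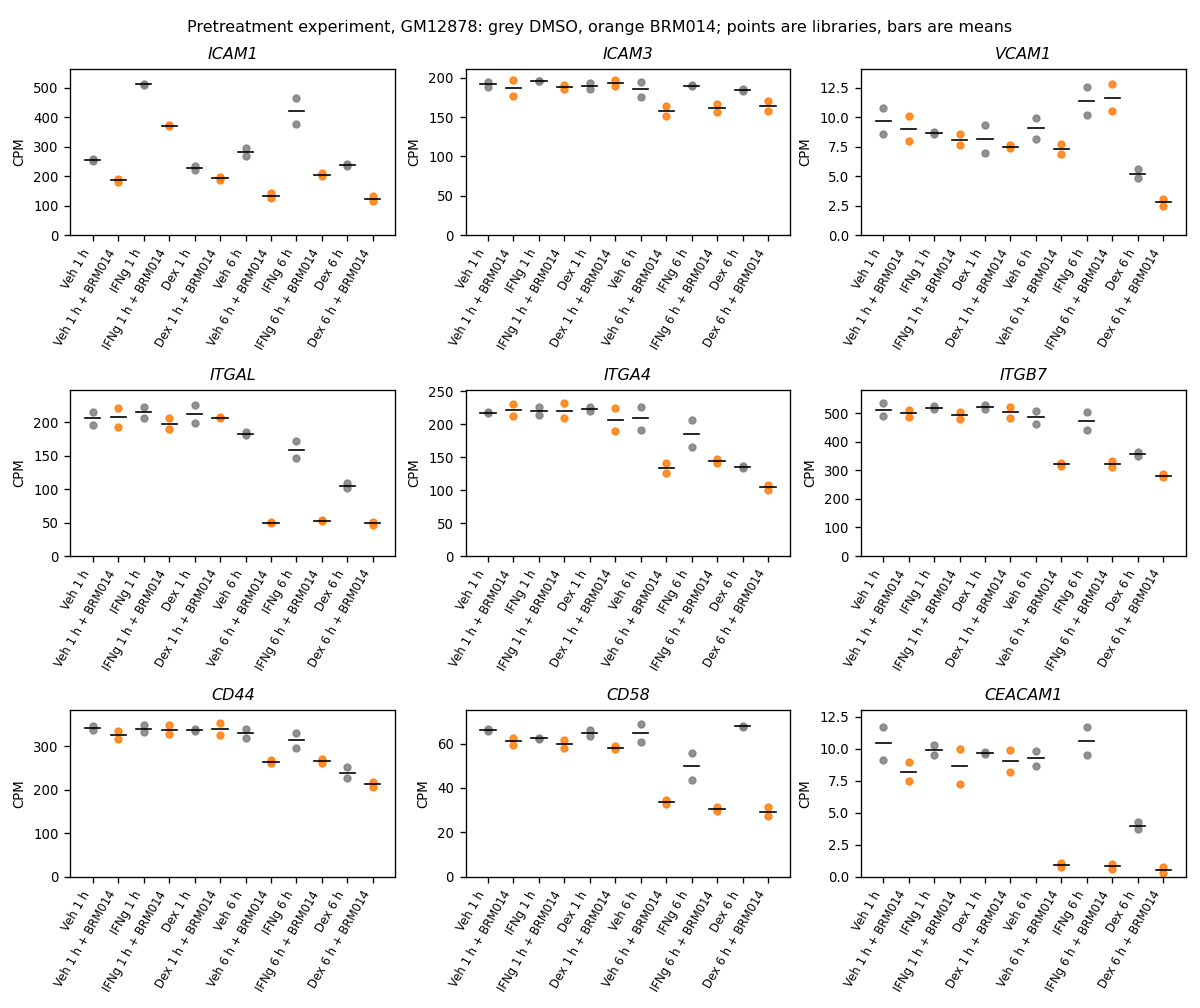
Levels of the 9 genes in the pretreatment experiment, in CPM (linear axis from 0), with DMSO libraries in grey, BRM014 libraries in orange, 1 point for each library and a bar at each group's mean. ICAM1 is highest after 1 h of IFNg (513 and 511 CPM), and the 6 BRM014 libraries at 6 h hold ITGAL between 46.8 and 54.1 CPM.

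**Figure D3:**
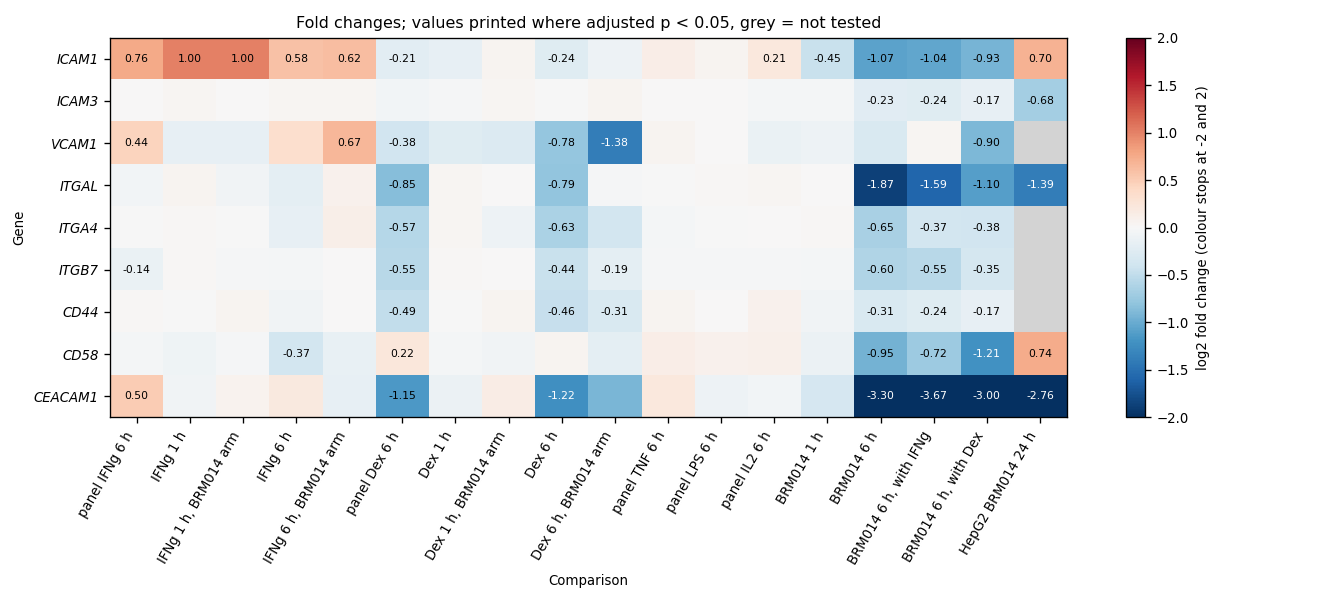
Log2 fold changes of the 9 genes (rows) in 18 comparisons (columns), coloured from blue (lower) to red (higher), with the value printed where the edgeR adjusted p was under 0.05 and grey where a gene was not tested. The BRM014 columns at 6 h are blue for ICAM1, ITGAL, CD58 and CEACAM1. ICAM1 is red in every column that sets IFNg against vehicle. Values beyond the colour scale share its end colour.

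HepG2 held a different set of these genes. In DMSO its CEACAM1 level was 156 and 172 TPM and its ICAM1 level 96.8 and 110.1 TPM, while the GM12878 vehicle libraries held 4.96 to 6.16 and 110.4 to 115 TPM. ICAM3 had 9.09 ± 0.134 TPM (SD, n = 2), CD58 at 8.51 and 10.6 and ITGAL at 1.95 and 2.73 TPM. CD44 and VCAM1 had 0 counts in all 4 libraries, where a count of 0 allows up to 3 counts, or 0.151 to 0.982 CPM. ITGA4 had 1 count in 1 of the 4 libraries, and ITGB7 had 0 and 3 counts with DMSO and 5 and 0 with BRM014. Those 4 genes did not pass the filter on low counts and were not tested. The lines were not grown or treated alike, so levels between them carry no test, and the line and its culture cannot be told apart.

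After 24 h of BRM014, all 5 tested genes were called in HepG2, 3 lower and 2 higher, beside 42.1% of all genes. CEACAM1 fell as in GM12878, to 53.3 and 52.1 CPM from 351 and 367 (-2.76 ± 0.097, edgeR adjusted p = 1.04e-12). ICAM1 rose, at 396 and 393 CPM against 235 and 249 (0.70 ± 0.086, adjusted p = 4.59e-06). The groups did not overlap for either gene. CD58 was at 10.7 and 9.41 CPM against 5.56 and 6.65 (0.74 ± 0.21, adjusted p = 0.0103). ICAM3 was at 5.65 and 6.59 CPM against 10.6 and 8.55 (-0.68 ± 0.23, adjusted p = 0.0223). ITGAL was at 0.967 and 1.26 CPM, or 20 and 4 counts, against 2.57 and 2.81, or 24 and 46 counts (-1.39 ± 0.43, adjusted p = 0.0153). The groups of these 3 genes did not overlap, but they rest on few counts, 4 for ITGAL and 21 for ICAM3 in the shallowest library. The time in HepG2 (24 h) differs from that in GM12878 (6 h).

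In DESeq2, CD58 (0.74, adjusted p = 0.104), ICAM3 (-0.66, adjusted p = 0.172) and ITGAL (-1.34, adjusted p = 0.167) were not called in HepG2. Without DMSO replicate 1, the edgeR adjusted p was 0.0609 for CD58 (0.62), 0.149 for ICAM3 (-0.55) and 0.0649 for ITGAL (-1.45). Without BRM014 replicate 1, it was 0.194 for CD58 (0.61), 0.293 for ICAM3 (-0.52) and 0.299 for ITGAL (-1.10), and without DMSO replicate 2 ITGAL was also lost (-1.30, adjusted p = 0.162).

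**Figure D4:**
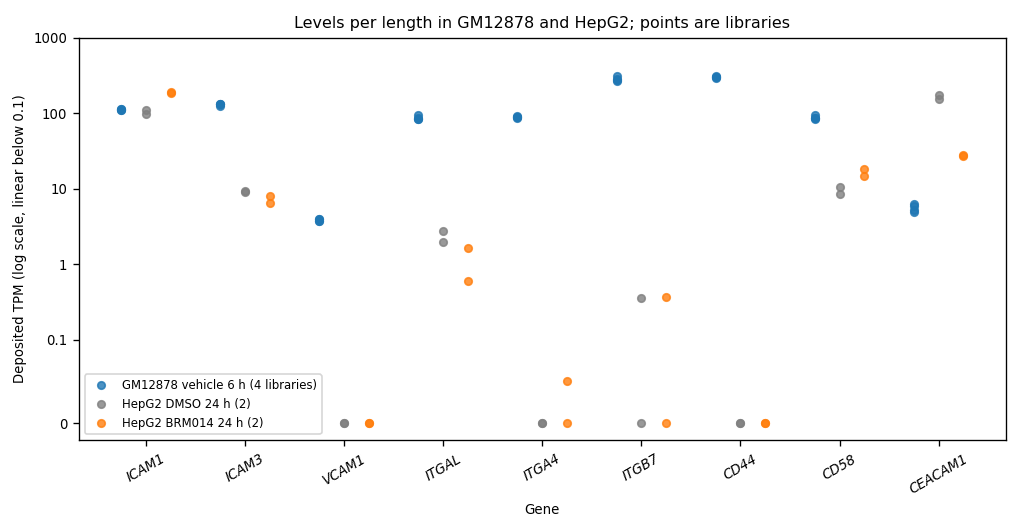
Deposited TPM of the 9 genes on a log axis that is linear below 0.1, with 1 point for each library: blue for the 4 GM12878 panel vehicle libraries, grey for HepG2 with DMSO and orange for HepG2 with BRM014. CEACAM1 stands at 156 and 172 TPM in HepG2 with DMSO and at 4.96 to 6.16 TPM in GM12878, and CD44 and VCAM1 are at 0 in HepG2.

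The partners and helpers of the 9 were described through 4 lists. With BRM014 at 6 h, 0 of 12 tested other integrin chains rose and 7 fell (list median -0.50), beside the 38.5% of all genes called. ITGB2, the beta 2 chain that completes LFA-1, fell by 0.88 on the log2 scale (SE 0.078, edgeR adjusted p = 3.08e-10), and so did ITGA5 (-1.86 ± 0.26) and ITGB1, a partner of ITGA4 (-0.28 ± 0.064). Of 25 genes that regulate integrins or link them to the cell cortex, 1 rose and 21 fell (median -0.44). Those that fell included the kinase PTK2B (-1.26 ± 0.049), the Rap1 exchange factor RASGRP3 (-0.97 ± 0.059) and CYTIP (-0.97 ± 0.064). Of 20 other adhesion molecules 2 rose and 8 fell (median -0.15). CD48, another ligand of CD2 family receptors, changed by -1.10 ± 0.056, PECAM1 by -1.32 ± 0.16 and CD24 by -0.91 ± 0.11. Of 6 hyaluronan genes, 1 rose (HYAL2, 0.63 ± 0.14) and 2 fell (HMMR, -0.43 ± 0.088, and VCAN, -0.63 ± 0.19). The median of all genes was 0.0064.

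With Dex in the panel, 3 of 13 other integrin chains rose and 4 fell (median -0.099). ITGB1 rose by 0.49 ± 0.054, while ITGA1 (-0.78 ± 0.099) and ITGB8 (-0.66 ± 0.098) fell. Of the 25 regulators and linkers 7 rose and 9 fell (median -0.068), with vinculin (VCL, 1.55 ± 0.047), ezrin (EZR, 0.67 ± 0.034) and CYTIP (0.59 ± 0.045) higher. Of 20 other adhesion molecules 2 rose and 4 fell (median 0.051): CD99L2 (0.42 ± 0.052) and CD81 (0.28 ± 0.038) rose and CD24 fell (-0.71 ± 0.082). Of 7 hyaluronan genes, STAB1 rose (4.10 ± 0.96) and VCAN fell (-0.49 ± 0.074), and the list median was -0.06. These counts stand beside 25.7% of all genes called.

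With IFNg in the panel, where 11.9% of all genes were called (7.11% higher, 4.75% lower; median -0.008), each list held called genes. Other integrin chains had 1 of 13 higher (ITGAV, 0.26 ± 0.082) and 2 lower (ITGB2, -0.21 ± 0.045, and ITGAX, -0.23 ± 0.074), with a median of -0.077. Other adhesion molecules had 2 of 20 higher, CD48 (0.15 ± 0.042) among them, and 3 lower, PECAM1 (-0.49 ± 0.11) and CD6 (-0.55 ± 0.15) among them (median -0.11). Regulators and linkers had 5 of 25 higher and 5 lower (median -0.019), with PTK2B (0.26 ± 0.035) and STK4 (0.20 ± 0.038) higher and VCL (-0.37 ± 0.057) lower. Of 7 hyaluronan genes 2 rose and 0 fell (median 0.24): HAPLN3, a hyaluronan link protein, by 5.70 ± 0.12 (edgeR adjusted p = 1.31e-24) and VCAN by 0.42 ± 0.068.

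In HepG2, 4 of 9 other integrin chains rose with BRM014 and 3 fell (median -0.12), with ITGB1 (1.00 ± 0.09) and ITGAV (0.80 ± 0.095) higher and ITGB5 (-0.66 ± 0.089) lower. Of 15 other adhesion molecules 7 rose and 4 fell (median -0.04), and ALCAM (1.38 ± 0.11), JAM3 (1.28 ± 0.15) and F11R (0.70 ± 0.092) were among those that rose. Of 15 regulators and linkers 5 rose, RDX (0.79 ± 0.11) and CYTH1 (0.60 ± 0.10) among them, and 2 fell, FLNA (-1.36 ± 0.085) among them (median 0.10). Of 6 hyaluronan genes HYAL2 rose (0.29 ± 0.10), and HYAL1 (-0.56 ± 0.092) and HMMR (-0.73 ± 0.13) fell (median -0.043). These counts stand beside 42.1% of all genes called, and the median of all genes was -0.015.

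Across the 20 GM12878 groups, centred within each experiment, the 9 genes followed each other to different degrees. On log2(CPM + 1) group means, Pearson's r was 0.97 between ITGA4 and ITGB7, 0.97 between ITGAL and ITGB7 and 0.93 between ITGA4 and ITGAL. CD44 followed ITGA4 at 0.96 and ITGB7 at 0.94, and CEACAM1 followed ITGAL at 0.96 and ITGB7 at 0.93. ICAM1 had 0.62 with ITGAL, its LFA-1 receptor chain, below its 0.70 with CEACAM1 and 0.67 with ICAM3. VCAM1 had 0.57 with ITGA4, below its 0.63 with CD44. The lowest value was 0.21, between CD58 and VCAM1. These groups share vehicles and the wide effect of BRM014 at 6 h, so the values describe the set of groups and carry no test. Among 11137 genes, those most like ICAM1 were SOCS3 (0.934), IRF8 (0.879) and MIDEAS (0.876), and those most like VCAM1 were PLEKHO1 (0.892), CHD1 (0.882) and RBM23 (0.875). CEACAM1 was closest to HSP90AB1 (0.982), ORMDL3 (0.980) and CTSZ (0.979), and CD58 to CLECL1P (0.985), ARHGAP23 (0.982) and SLC12A8 (0.981). ITGAL was closest to CDH1 (0.987), EVL (0.987) and CD37 (0.986). ITGA4 was closest to BCAR3 (0.986), HECW2 (0.981) and CCDC50 (0.977), and ITGB7 to TSPAN33 (0.994), MEST (0.987) and ORAI2 (0.987). CD44 was closest to CCDC50 (0.976), TCF7 (0.976) and RAP1A (0.975), and ICAM3 to CLNK (0.970), IGHA1 (0.968) and C7orf50 (0.967).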

How the data were processed

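Polyadenylated RNA was sequenced from 43 libraries of established cell lines in 22 groups taken from the sample titles. The deposited files hold RSEM expected counts per gene and TPM, per the file headers. STAR, RSEM and hg38 are named in the submitters' processing notes; versions, settings, annotation release and use of strand are not given in the sources used here. Reads of overlapping antisense genes therefore cannot be told apart. Each file held 59526 identifiers, of which 58780 were Ensembl genes; the other 746 held 0 counts and were left out. Between 2.51% and 4.8% of the values in a file were not whole and were rounded; the counts of the 9 genes were whole in every library. Symbols and positions came from GENCODE 44.

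Each experiment was fitted separately with edgeR 4.0.16 (R 4.3.3): filterByExpr by group, TMM scaling, and the robust quasi-likelihood test with no covariates, 2-sided. The fits held 15775 genes (panel), 15183 (pretreatment) and 13349 (HepG2). Calls were made where p, adjusted after Benjamini and Hochberg over all genes of a comparison, was under 0.05. CPM was computed from the deposited expected counts with TMM, within an experiment; TPM is the authors' value. The fits were also run on simulated data. The simulated counts had the same spread for all genes and held no changes as small as many called here. By rule the 9 genes were tested in every comparison in which they passed the filter; those not called are given by value, range or count. The other genes named are the up to 3 called genes with the smallest adjusted p in each list, and the 3 with the most similar pattern. The 9 genes and the lists were chosen with earlier results of these data known. Alternatives were DESeq2 size factors, DESeq2 1.42.0, no filter, a replicate block, only the compared groups, DMSO or PBS alone as control, each library left out, and for Dox a pseudocount of 0.1 CPM in place of 1. Where a left-out library left a single one in its group, that one was assumed to vary like the other groups.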

Additional observations from a re-analysis of the deposited data

Results flagged for a closer look

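ICAM1 and CD58 moved in opposite directions in the 2 cell lines with BRM014. In HepG2 at 24 h both rose in each library, with log2 fold changes of 0.70 for ICAM1 and 0.74 for CD58, and in GM12878 at 6 h both fell, by 1.07 and 0.95. The times differ, and the difference between the lines was not tested. The CD58 call in HepG2 was lost without DMSO replicate 1 (0.62, edgeR adjusted p = 0.0609) or BRM014 replicate 1 (0.61, adjusted p = 0.194).

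The response of ITGAL to 6 h of Dex differed between the DMSO and BRM014 arms by 0.77 on the log2 scale (edgeR adjusted p = 0.000363). It fell by 0.79 in the DMSO arm and had a value of -0.027 in the BRM014 arm, where its level without Dex was already 50.9 and 49.2 CPM.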

How the results depend on the processing

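The 61 called results of the 9 genes were recomputed under 605 alternatives. Of these, 551 kept direction and call, 54 kept the direction without the call and 0 reversed. TPM was not among the alternatives. Of the 61, 20 lost their call under at least 1 alternative, given beside each result, and 3 results that were not called gained one. The number of the 9 called went to 0 for IL2 with PBS alone as control, to 1 for IFNg at 6 h and for Dex at 1 h with only the compared groups, and, with DESeq2, to 1 for IFNg at 6 h in BRM014 and to 2 in HepG2. Leaving out each library gave 2 to 4 called for panel IFNg, 0 to 1 for IL2, 1 to 3 for IFNg at 6 h, 1 to 2 for IFNg at 6 h in BRM014, 0 to 1 for BRM014 at 1 h and 2 to 5 in HepG2. The Dox ratio of VCAM1 was -1.40 with a pseudocount of 0.1 CPM. Apart from the constructions that leave out libraries or groups, the cause was not tested. Groups of 2 libraries limit the precision, and so does depth for VCAM1, for CEACAM1 with BRM014 and for HepG2.

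With the replicate number as a block, the count called stayed at 4 for panel IFNg, 8 for panel Dex, 7 for Dex at 6 h, 8 for BRM014 at 6 h and 5 in HepG2, and it changed no other count. Same-numbered libraries did not pair throughout. Their deviations correlated at -0.11 to 0.3 (median 0.045) over 21 pairs of panel groups, 4 of them over 0.1. Over 66 pairs of pretreatment groups they correlated at -0.3 to 0.35 (median 0.025), 20 of them over 0.1. In HepG2 the value was -0.22. A crossed block in HepG2, chosen after seeing the data, also gave 5. Over all genes, the block called 16 with LPS and 5 with TNF, against 0 and 3 without it, and DESeq2 called 6 with TNF and 16 and 51 for the IFNg interactions at 1 h and 6 h, against 3, 10 and 30 in edgeR.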
